A study of Mus musculus with 30 samples.

Results

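Osteocalcin and matrix Gla protein, the small bone and cartilage proteins that carry gamma-carboxyglutamate residues, were followed at the RNA level through their mouse genes *Bglap*, *Bglap2* and *Mgp*. These 3 genes were chosen by name out of 25520 gene symbols in untreated cells and 25410 in a hormone experiment. Earlier results of these data were known at that choice. The cells were IDG-SW3, a mouse bone line with a temperature-sensitive, interferon-driven immortalising gene, which in culture turns from osteoblast-like into osteocyte-like. They were grown with interferon-gamma at the lower, permissive temperature, and all groups were then moved to the higher temperature without interferon in ascorbic acid and beta-glycerophosphate on collagen-coated plates. The untreated cells, which received neither hormone nor vehicle, were taken at 6 times, namely day 3, day 7, day 14, day 21, day 28 and day 35, with 3 libraries per day. The hormone groups were cells at day 35 or day 3 given 100 nM 1,25(OH)2D3, the active form of vitamin D, or its ethanol vehicle for 24 hours, with 3 libraries in each of the 4 groups. The replicates are labelled biological, but all come from 1 cell line.

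*Bglap* and *Bglap2* encode osteocalcin, which mature osteoblasts secrete into bone matrix, where it binds calcium and hydroxyapatite, and from which a fraction enters the blood. *Mgp* encodes matrix Gla protein, an inhibitor of calcification made by cartilage, vascular smooth muscle and several connective tissue cells. Both proteins become active in binding mineral only after the enzyme encoded by *Ggcx* carboxylates their glutamates with reduced vitamin K. In human and rat, 1,25(OH)2D3 induces the osteocalcin gene, whereas the mouse osteocalcin genes are known not to respond in the same way.

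*Bglap* and *Bglap2* lie side by side on the minus strand of chromosome 3 (GRCm38, 3:88383501-88384464 and 3:88377736-88378699), each with 4 exons, and *Mgp* has 4 exons on the minus strand of chromosome 6 (6:136872435-136875823). The deposited values were made on mm9, so these positions only locate the genes. The coding sequences of both osteocalcin copies (GENCODE M21, 288 bases each) are shown because they limit what the files can resolve; capitals mark the bases that differ.
Bglap: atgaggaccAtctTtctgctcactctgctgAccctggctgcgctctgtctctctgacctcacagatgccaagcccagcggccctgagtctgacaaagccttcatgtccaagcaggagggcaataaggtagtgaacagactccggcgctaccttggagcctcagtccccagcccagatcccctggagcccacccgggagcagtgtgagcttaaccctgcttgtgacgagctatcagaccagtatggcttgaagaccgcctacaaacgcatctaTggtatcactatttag
Bglap2: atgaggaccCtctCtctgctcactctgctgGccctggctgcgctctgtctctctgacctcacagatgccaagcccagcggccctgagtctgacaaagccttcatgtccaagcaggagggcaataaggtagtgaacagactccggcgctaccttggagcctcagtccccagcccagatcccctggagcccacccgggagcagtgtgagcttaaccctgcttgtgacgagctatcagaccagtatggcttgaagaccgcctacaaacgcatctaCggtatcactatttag
Counted from the first coding base, the differences from *Bglap* to *Bglap2* are A10C, T14C, A31G and T273C, so the coding sequences are 98.6% identical. Of all stretches of 36 bases in the *Bglap* transcript 79% also occur in that of *Bglap2*, and of stretches of 75 bases 66.1% do. How the authors assigned such reads is not given in the sources used here, so the split between the copies is uncertain, while their sum depends on it less. The files hold 2 rows for *Bglap*, of which the lower carried at most 3.21 RPKM or 42 reads.

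The 250 bases before the *Bglap* start site (RefSeq, GRCm38.p6, minus strand, chr3:88384467-88384716) are shown because the members are compared below under a nuclear hormone. Capitals mark the motifs found.
Bglap promoter: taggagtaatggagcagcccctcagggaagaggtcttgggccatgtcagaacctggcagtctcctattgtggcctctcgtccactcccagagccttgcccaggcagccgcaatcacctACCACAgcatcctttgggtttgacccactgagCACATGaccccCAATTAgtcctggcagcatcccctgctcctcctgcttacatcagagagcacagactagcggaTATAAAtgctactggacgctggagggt
From left to right these are the RUNX core ACCACA, whose first base is at -132 from the start site, a match to the E-box CANNTG at -100, the homeobox core TAATTG on the opposite strand at -89 and the TATA box TATAAA at -27. Among 32851 promoter windows of the same length, searched on both strands, 14% held ACCACA, 66.2% CANNTG, 7.17% TAATTG and 12.4% TATAAA. The AP-1 motif TGANTCA and the nuclear receptor half-sites AGGTCA and GGTTCA had no match in this window, against 6.75%, 14% and 8.85% of all windows. Other spellings of such half-sites and bases further upstream were not searched, so the window cannot show whether a receptor site is absent.

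The untreated values are RPKM, which scale reads by gene length and library size, and their depth is unknown. Ribosomal RNA rows made up 71.6% to 88.4% of each library's sum. The hormone files hold 22062866 to 54325515 reads per library and are given here as CPM, counts scaled to a common library size after TMM. Levels were compared only within an experiment. As a check of the cell type, the summed level of 9 osteoblast markers was 751 to 1474 RPKM at day 35 and 299 to 349 RPKM at day 3, with no marker at 0. The sum of 8 osteocyte markers was 2.31 to 5.27 RPKM at day 35 and 5.2 to 6.92 RPKM at day 3, most of it *Capg* (2.03 to 4.23 RPKM at day 35 and 4.56 to 6.02 RPKM at day 3, with up to 14.6 RPKM at day 7). Of the others, *Dmp1* reached at most 0.556 RPKM and *Fgf23* was listed at 0 on all 6 days. In vehicle cells of the hormone experiment *Capg* had no reads, and *Dmp1* lay between 121 and 238 CPM at day 35 and between 4.24 and 7.22 CPM at day 3. There *Pdpn* lay between 49.7 and 79.1 CPM at day 35 and between 65.7 and 89.8 CPM at day 3, and *Fgf23* reached at most 0.0688 CPM. Of 7 tested osteocyte markers 5 were higher and 0 lower at day 35 (edgeR, adjusted p below 0.05), beside 15.5% and 14.5% of all genes. Why *Capg* lacked reads in these cells was not tested.

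In untreated cells the osteocalcin copies were low until day 14 and rose steeply between day 14 and day 28. Genes with an adjusted p below 0.05 count as called, and against day 3 these were 25.7% of 9933 genes at day 7, 29.7% at day 14, 37.0% at day 21, 41.5% at day 28 and 57.1% at day 35, with an all-gene median log2 change of 0.23, 0.07, -0.09, -0.28 and -0.69 on these days. *Bglap* measured 2.61, 4.42 and 3.15 RPKM at day 3, 3.76, 3.12 and 3.74 at day 7, 1.09, 1.49 and 1.52 at day 14, 8.64, 24.5 and 18.4 at day 21, 89.5, 141 and 150 at day 28, then 186, 162 and 90.9 at day 35. All libraries from day 21 on lay above all earlier ones, day 14 lay below every other day, and days 28 and 35 overlapped. Here and below, the share of all genes whose days do not overlap was not counted. Relative to day 3, the log2 change of *Bglap* was 2.09 ± 0.33 (SE) at day 21, 5.02 ± 0.33 at day 28 and 5.20 ± 0.33 at day 35 (limma, adjusted p = 5.62e-05, 1.59e-09 and 4.84e-10). In fold terms the mean was 146 ± 49.7 RPKM at day 35 and 3.39 ± 0.932 RPKM at day 3 (SD, n = 3 each), a ratio of 43.2. Day 7 did not differ detectably from day 3 (0.08 ± 0.33, adjusted p = 0.889). Day 14 was lower than day 3 (-1.04 ± 0.33, adjusted p = 0.0231), and that call was lost without day 3 replicate 2 (-0.86, adjusted p = 0.111), day 3 replicate 3 (-1.07, 0.0522) or day 14 replicate 1 (-0.93, 0.0654).

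*Bglap2* followed the same course from a higher start. It measured 7.82, 8.11 and 8.18 RPKM at day 3, 5.51, 9.05 and 8.6 at day 7, 3.76, 5.97 and 6.46 at day 14, 14.2, 36.2 and 23.8 at day 21, 99.3, 143 and 157 at day 28, then 160, 166 and 88.6 at day 35. Day 14 lay below day 3 in every library but overlapped day 7, and the change from day 3 did not pass (-0.57 ± 0.32, adjusted p = 0.204). Its changes from day 3 were 1.47 ± 0.32 at day 21, 3.94 ± 0.32 at day 28 and 3.97 ± 0.32 at day 35 (limma, adjusted p = 0.00131, 1.81e-08 and 7.41e-09). The sum of both copies, fitted as 1 row, changed by 4.52 ± 0.32 between day 35 and day 3 (adjusted p = 1.73e-09).

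The steps between neighbouring days place the rise. *Bglap* changed by 3.13 ± 0.33 from day 14 to day 21 and by 2.93 ± 0.33 from day 21 to day 28 (limma, adjusted p = 0.000108 and 3.91e-05), and *Bglap2* by 2.03 ± 0.32 and 2.48 ± 0.32 (adjusted p = 0.00431 and 0.000218). Few genes moved at these steps: 0.634% of the 9933 genes tested were called between days 14 and 21, and 1.24% between days 21 and 28. From day 28 to day 35 neither copy changed detectably (0.18 with a 95% interval of -0.52 to 0.87 for *Bglap*, 0.03 with -0.65 to 0.70 for *Bglap2*), while 7.98% of genes were called. From day 7 to day 14 the fall of *Bglap* did not pass (-1.12 ± 0.33, adjusted p = 0.0879), with 2.87% of genes called, but passed once replicate number entered as a block (-1.12, adjusted p = 0.0371). In order of mean level *Bglap* ran day 35, 28, 21, 7, 3 and 14. Of these neighbours, days 35 and 28 and days 7 and 3 were not told apart, and days 21 and 7 did not overlap.

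*Mgp* took a different course, high from the start, higher in the middle weeks and low again at day 35. It measured 325, 430 and 516 RPKM at day 3, 898, 1410 and 1503 at day 7, 972, 1955 and 2248 at day 14, 1428, 1649 and 1726 at day 21, 1493, 843 and 1118 at day 28, then 444, 394 and 360 at day 35. Every library from day 7 to day 28 lay above every library of days 3 and 35, and days 35 and 3 overlapped. The change from day 3 was 1.57 ± 0.30 at day 7, 1.96 ± 0.30 at day 14, 1.94 ± 0.30 at day 21 and 1.43 ± 0.30 at day 28 (limma, adjusted p = 0.000857, 6.74e-05, 4.57e-05 and 0.000731). In mean level *Mgp* ran day 14, 21, 7, 28, 3 and 35, and neighbours overlapped in this order except days 28 and 3.

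**Figure D1:**
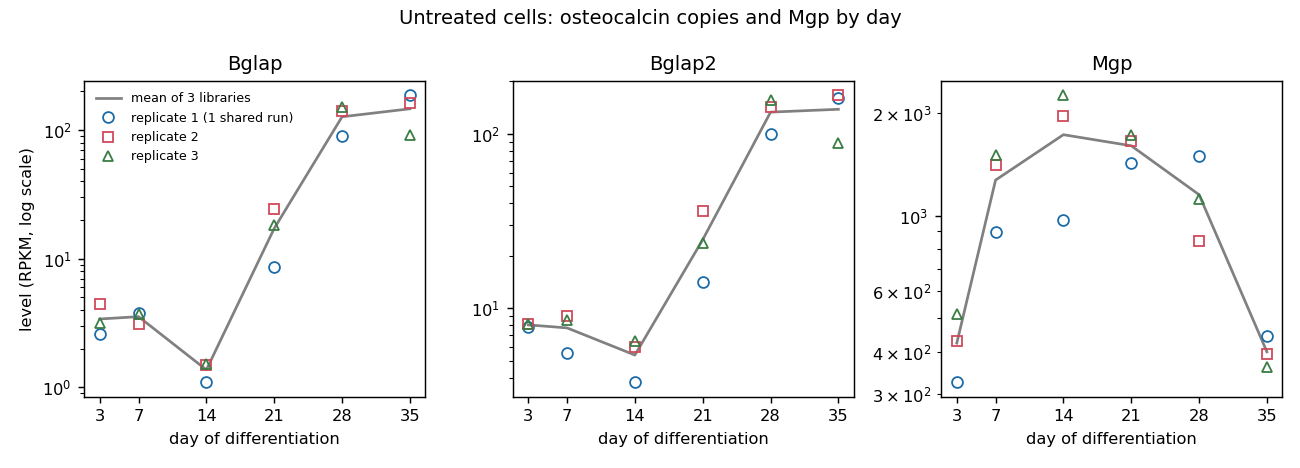
Levels of *Bglap*, *Bglap2* and *Mgp* in untreated cells (RPKM, log axis) against the day of differentiation, with 1 point per library and a line through the mean of 3 libraries; replicate 1 of every day came from 1 sequencing run. *Bglap* and *Bglap2* rise after day 14 to 88.6 to 186 RPKM at days 28 and 35, whereas *Mgp* is highest between days 7 and 28 and lies between 360 and 444 RPKM at day 35.

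At day 35 *Mgp* did not differ detectably from day 3 in the listed values (-0.07 ± 0.30, adjusted p = 0.863), and the direction depended on scaling, at 0.76 (adjusted p = 0.00676) with libraries centred on their medians and 0.37 (adjusted p = 0.114) when rescaled without ribosomal RNA. The median over all genes tested shifted by -0.69 between these days, so *Mgp* lay above that median while its listed level was close to that of day 3. From day 28 to day 35 *Mgp* fell to 399 ± 42.1 RPKM at day 35, against 1152 ± 326 RPKM at day 28 (SD, n = 3 each; log2 change -1.49 ± 0.30, limma, adjusted p = 0.00952). That call was lost without day 28 replicate 1 (-1.29, adjusted p = 0.0839) and with sequencing run in the model (-1.10, adjusted p = 0.287). Within the run that held replicate 1 of every day, *Mgp* measured 325, 898, 972, 1428, 1493 and 444 RPKM from day 3 to day 35, with 1 library per day. There too days 7 to 28 lay above days 3 and 35, but day 28 was the highest, whereas the mean of all libraries was highest at day 14.

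Against day 3 the calls at day 35 were mostly falls, with 5.63% of genes higher (559) and 51.5% lower (5117), but with centred libraries the split was 2934 higher and 2139 lower. With sequencing run in the model it was 658 higher and 2805 lower. Apart from replicate 1 of each day, day 35 shared no run with any other day. Run and day therefore cannot be fully told apart in this comparison. Both osteocalcin copies are among the 559 genes, and centring made their changes larger (6.02 for *Bglap* and 4.79 for *Bglap2*).

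Relative to each other, per length, *Mgp* exceeded osteocalcin at every untreated day. The ratio of summed osteocalcin to *Mgp* averaged 0.0277 ± 0.00521 at day 3, 0.00906 ± 0.00112 at day 7, 0.00412 ± 0.000769 at day 14, 0.0258 ± 0.0105 at day 21, 0.246 ± 0.108 at day 28 and 0.704 ± 0.18 at day 35 (SD, n = 3 each). It was lowest at day 14 and highest at day 35, where the libraries lay between 0.499 and 0.832.

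Markers of other cell types also moved between these days. The summed level of 7 smooth muscle markers was 12.8 to 21.1 RPKM at day 35 and 145 to 163 RPKM at day 3, with *Cnn1* and *Des* at 0 at day 35. The sum of 7 fibroblast and tendon markers was 329 to 374 RPKM at day 3, 1011 to 1028 at day 7, 943 to 1462 at day 14, 1627 to 1675 at day 21, 1612 to 2808 at day 28 and 1018 to 1946 at day 35, most of it *Lum*. Chondrocyte markers, which matter because cartilage makes *Mgp*, summed to 8.88 to 15.8 RPKM at day 35 and 10.2 to 16.9 RPKM at day 3, but its members moved apart. *Col2a1* lay between 1.94 and 6.21 RPKM at day 35 and between 0.107 and 0.133 RPKM at day 3. *Comp* lay between 4.25 and 7.28 RPKM at day 35 and between 0.857 and 1.78 RPKM at day 3. *Sox9* lay between 1.97 and 2.87 RPKM at day 35 and between 7.91 and 13.9 RPKM at day 3. Of the 4 tested members 2 were called higher and 2 lower (5.63% and 51.5% of all genes), and *Acan* did not pass 0.467 RPKM. The part of these markers in the *Mgp* course was not tested, and in such bulk libraries fewer cells of a type and less RNA per cell cannot be told apart.

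In the hormone experiment the osteocalcin copies were again far higher at day 35, and *Mgp* was higher there too. Among vehicle cells *Bglap* measured 324, 763 and 736 CPM at day 35, against 8.61, 5.68 and 7.73 CPM at day 3. *Bglap2* measured 250, 519 and 524 CPM at day 35, against 12.7, 8.39 and 11.9 CPM at day 3. *Mgp* measured 98, 89.7 and 93.1 CPM at day 35, against 44.2, 37.6 and 44.1 CPM at day 3. For each of the 3 genes every day 35 library lay above every day 3 library. The share of all genes without such overlap was not counted. The log2 changes of *Bglap*, *Bglap2* and *Mgp* were 6.37 ± 0.33, 5.29 ± 0.32 and 1.16 ± 0.20 (edgeR, adjusted p = 3.15e-09, 1.04e-08 and 0.000475), where 29.9% of 20055 genes were called, 15.5% higher and 14.5% lower, and the all-gene median was 0.17. Among hormone-treated cells the same contrast gave 5.79 ± 0.32, 4.88 ± 0.31 and 1.30 ± 0.20 (edgeR, adjusted p = 9.15e-09, 3.1e-08 and 0.000209), with 27.6% of genes called. Smooth muscle markers summed to 191 to 237 CPM at day 35 and 1633 to 2703 CPM at day 3 in vehicle cells. Fibroblast and tendon markers summed to 1642 to 2858 CPM at day 35 and 400 to 506 CPM at day 3, and chondrocyte markers to 314 to 411 CPM at day 35 and 72 to 167 CPM at day 3. Their part in these changes was not tested.

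With 1,25(OH)2D3 *Mgp* rose at both stages, and neither osteocalcin copy was called. At day 35 *Mgp* measured 220, 133 and 188 CPM in hormone-treated cells, against 98, 89.7 and 93.1 CPM in vehicle cells. At day 3 it measured 57.6, 96.5 and 65.2 CPM in hormone-treated cells, against 44.2, 37.6 and 44.1 CPM in vehicle cells. At both days every hormone-treated library lay above every vehicle library of that day. How many of all genes separate in this way was not counted. The ratios of the means were 1.93 at day 35 and 1.74 at day 3, and the log2 changes were 0.95 ± 0.20 and 0.80 ± 0.20 (edgeR, adjusted p = 0.0119 and 0.0161). The background was 4.56% of genes called at day 35, 2.41% higher and 2.14% lower, and 20.5% at day 3, 11.4% higher and 9.09% lower, with all-gene medians of 0.02 and 0.26. The responses were not told apart between the days (difference, day 35 minus day 3, 0.15, 95% interval -0.46 to 0.76, edgeR, adjusted p = 0.791), where 7.08% of genes were called.

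With 3 libraries a group the *Mgp* calls were near the threshold. At day 35 the call was lost without hormone replicate 1 (0.83, adjusted p = 0.0523). At day 3 it was lost without hormone replicate 2 (0.54, adjusted p = 0.0836), vehicle replicate 2 (0.72, 0.0551) or vehicle replicate 3 (0.75, 0.0544). The direction held in all of these refits. Stray reads on olfactory receptor genes, whose products serve the nose and not bone, were more frequent in the day 3 hormone libraries, at 4.29 to 5.96 reads per kilobase, against 0.53 to 0.71 in the day 3 vehicle libraries; at most 7.07 such reads would fall on *Mgp*, which had 1634 or more in every library. Hormone replicate 2 at day 35 had 3.93 reads per kilobase, against 0.511 and 0.708 in the other hormone libraries of that day. With that background subtracted the *Mgp* changes were 0.97 at day 35 and 0.96 at day 3 (edgeR, adjusted p = 0.00502 and 0.00357). Adipocyte markers summed to 98.9 to 132 CPM in hormone-treated cells, against 34.5 to 46.5 CPM in vehicle cells, at day 35. At day 3 the adipocyte sums were 33.9 to 207 CPM with hormone, against 20 to 27.6 CPM with vehicle. Smooth muscle markers summed to 107 to 132 CPM in hormone-treated cells, against 191 to 237 CPM in vehicle cells, at day 35. At day 3 the smooth muscle sums were 736 to 775 CPM with hormone, against 1633 to 2703 CPM with vehicle. Chondrocyte markers summed to 245 to 291 CPM in hormone-treated cells, against 314 to 411 CPM in vehicle cells, at day 35, and overlapped at day 3. Their members moved apart at day 35: *Matn3* lay between 35.4 and 45.7 CPM with hormone, against 9.6 to 12 CPM with vehicle. *Acan* lay between 8.94 and 15 CPM with hormone, against 41.9 to 69.3 CPM. Of 8 tested, 1 was called higher and 1 lower at day 35 (2.41% and 2.14% of all genes). At day 3, 3 were higher and 0 lower (11.4% and 9.09% of all genes). The fibroblast and tendon sum overlapped at day 35 and was 246 to 330 CPM in hormone-treated cells, against 400 to 506 CPM in vehicle cells, at day 3. Their part in the *Mgp* response was not tested.

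*Bglap* measured 448, 443 and 585 CPM in hormone-treated cells at day 35, against 324, 763 and 736 CPM in vehicle cells. At day 3 it measured 8.6, 10.2 and 7.8 CPM in hormone-treated cells, against 8.61, 5.68 and 7.73 CPM in vehicle cells. The groups overlapped at both days, with vehicle replicate 1 at day 35 below all other day 35 libraries. The log2 changes were -0.31 (95% interval -0.86 to 0.25, adjusted p = 0.702) at day 35 and 0.27 (-0.31 to 0.86, adjusted p = 0.473) at day 3 by edgeR.

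*Bglap2* measured 329, 277 and 391 CPM in hormone-treated cells at day 35, against 250, 519 and 524 CPM in vehicle cells. At day 3 it measured 11.2, 14.2 and 8.45 CPM in hormone-treated cells, against 12.7, 8.39 and 11.9 CPM in vehicle cells. Again the groups overlapped at both days. The log2 changes were -0.38 (95% interval -0.94 to 0.19, adjusted p = 0.612) at day 35 and 0.04 (-0.55 to 0.62, adjusted p = 0.927) at day 3 by edgeR. These intervals leave room for changes of either sign, so an equal level was not shown. As reads, not per length, the ratio of summed osteocalcin to *Mgp* averaged 4.71 ± 1.03 in hormone-treated cells at day 35, against 11.2 ± 4.67 in vehicle cells, and 0.282 ± 0.0533 in hormone-treated cells at day 3, against 0.434 ± 0.0547 in vehicle cells (SD, n = 3 each), with no overlap between treatments at either day. The difference in this ratio was not tested.

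**Figure D2:**
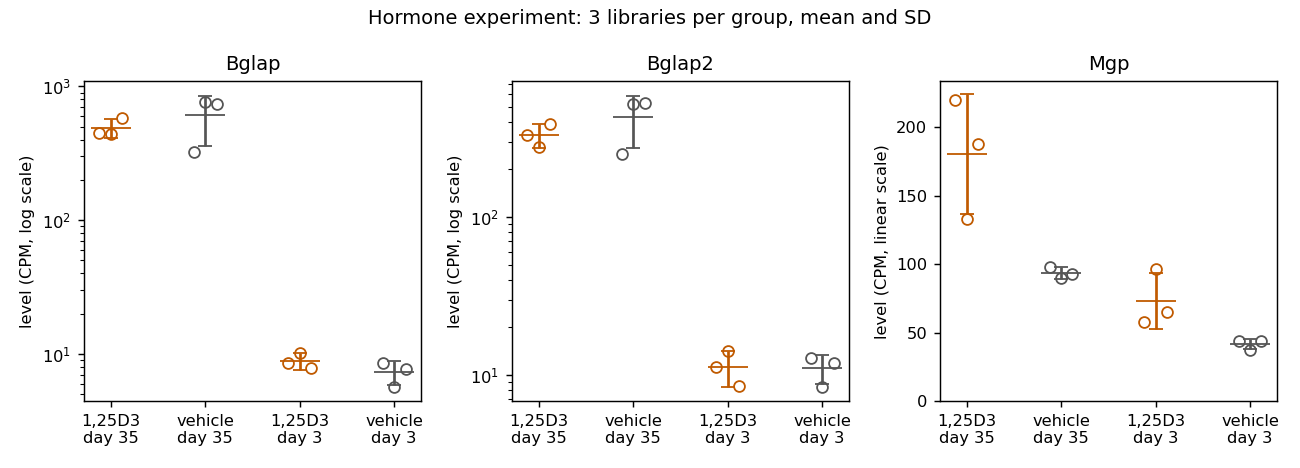
Levels of *Bglap* and *Bglap2* (CPM, log axes) and *Mgp* (CPM, linear axis from 0) in 1,25(OH)2D3-treated (1,25D3) and vehicle cells at day 35 and day 3, with 1 circle per library and the mean with SD of 3 libraries. *Mgp* lies between 133 and 220 CPM in hormone-treated and 89.7 and 98 CPM in vehicle cells at day 35, while the *Bglap* and *Bglap2* groups overlap between treatments.

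**Figure D3:**
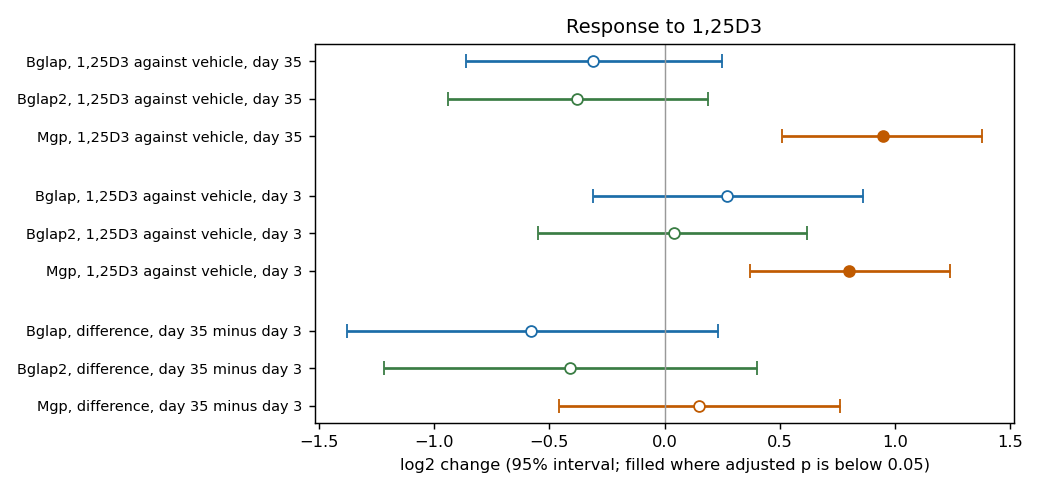
Log2 change of each gene between 1,25(OH)2D3-treated and vehicle cells at day 35 and at day 3, and the difference of these changes between the days, with 95% intervals from the edgeR fit; filled circles mark an adjusted p below 0.05. The intervals of *Mgp* lie above 0 at both days, and those of *Bglap*, *Bglap2* and all 3 differences include 0.

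The treatment itself was visible in known targets of the hormone. Over all genes tested, 2.41% were called higher with hormone at day 35 and 11.4% at day 3. All 4 listed targets rose at day 35, among them *Spp1*, the gene of osteopontin (3386 ± 586 CPM in hormone-treated cells, against 287 ± 32 CPM in vehicle cells), *Tnfsf11*, the gene of RANKL (91.4 ± 12.2 CPM, against 8.19 ± 3.38 CPM) and the receptor gene *Vdr* (25.6 ± 5.75 CPM, against 8.22 ± 2.23 CPM; SD, n = 3 each). The *Vdr* call was lost without vehicle replicate 3 (1.49, adjusted p = 0.062) or hormone replicate 3 (1.51, 0.053) at day 35. At day 3, 2 of the 4 rose, *Cyp24a1*, whose enzyme degrades the hormone (6.99 ± 2.55 CPM in hormone-treated cells, against 0.116 ± 0.0189 CPM in vehicle cells), and *Spp1* (96.3 ± 18.4 CPM, against 34.6 ± 9.36 CPM).

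The share of *Bglap2* in the osteocalcin reads was lower in every day 35 library than in every day 3 library of the hormone experiment, without reaching p below 0.05 in either treatment alone. *Bglap2* made up 42.3%, 38.5% and 40.1% of their reads in hormone-treated cells at day 35, and 56.5%, 58.4% and 52% in hormone-treated cells at day 3. In vehicle cells it made up 43.6%, 40.5% and 41.6% at day 35, against 59.6%, 59.6% and 60.6% at day 3. The Wilson 95% intervals, which cover counting error only, ran from 42.9% to 44.3% in vehicle replicate 1 at day 35 and from 56.3% to 62.8% in vehicle replicate 1 at day 3. The days did not overlap in either treatment, and an exact two-sided permutation test of 3 against 3 libraries gave its smallest possible p of 0.1 in each (adjusted p = 0.129 over 9 comparisons). Between treatments the share was 40.3% ± 1.94 in hormone-treated cells and 41.9% ± 1.55 in vehicle cells at day 35 (SD, n = 3 each, exact permutation p = 0.4), and 55.6% ± 3.25 in hormone-treated cells and 60% ± 0.588 in vehicle cells at day 3 (exact permutation p = 0.1, the smallest possible).

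In untreated cells the share of *Bglap2*, here per length, averaged 70.6% ± 5.33 at day 3, 67.8% ± 7.64 at day 7, 79.5% ± 1.79 at day 14, 59.4% ± 2.91 at day 21, 51.3% ± 1.2 at day 28 and 48.7% ± 2.22 at day 35 (SD, n = 3 each). From day 14 to day 28 it was lower at each later day without overlap. Days 14, 21, 28 and 35 each differed from day 3 without overlap (exact permutation p = 0.1, adjusted p = 0.129), and day 7 overlapped it (exact permutation p = 0.6).

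**Figure D4:**
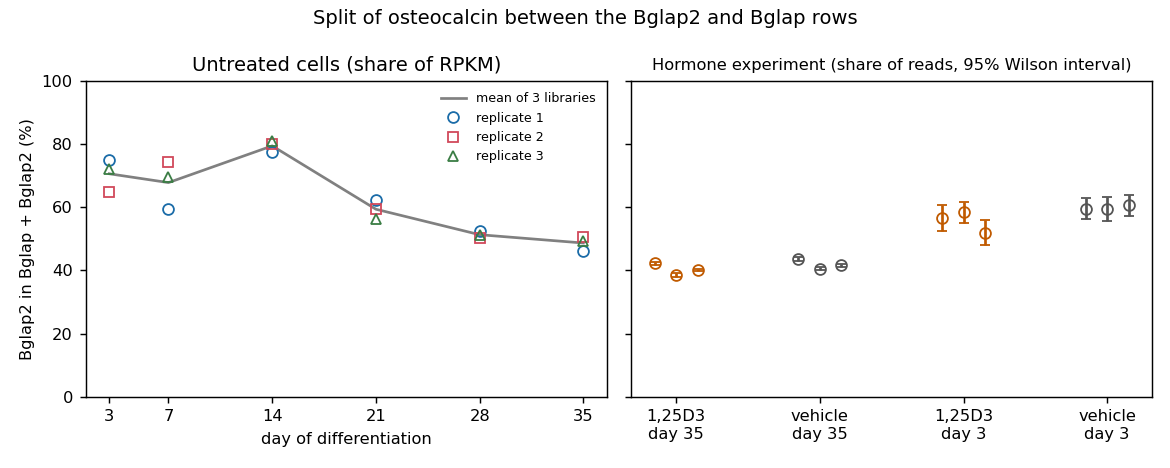
Share of *Bglap2* in the sum of the *Bglap* and *Bglap2* rows (%), by day in untreated cells as a share of RPKM with 1 point per library and a line through the means, and by group in the hormone experiment as a share of reads with 95% Wilson intervals (1,25D3 is 1,25(OH)2D3). The mean share is 79.5% at day 14 and 48.7% at day 35 in untreated cells, and libraries lie between 38.5% and 43.6% at day 35, against 52% to 60.6% at day 3, in the hormone experiment.

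Other genes of Gla proteins changed in both directions over time. Of 17 listed members, with the 3 genes described above included, 14 were tested in the hormone experiment, where 5 were higher and 2 lower at day 35 than at day 3 in vehicle cells (15.5% and 14.5% of all genes; list median 0.79, all-gene median 0.17). *Gas6*, the ligand of the TAM receptors, averaged 2056 ± 27 CPM at day 35 and 1125 ± 34.5 CPM at day 3 (0.87 ± 0.14, edgeR, adjusted p = 0.000203). *Pros1*, the gene of protein S, averaged 538 ± 101 CPM at day 35 and 928 ± 103 CPM at day 3 (-0.78 ± 0.19, adjusted p = 0.00492), and *Prrg4*, a transmembrane Gla protein gene, 21 ± 2.19 CPM and 89.8 ± 18.2 CPM (-2.10 ± 0.20, adjusted p = 1.26e-06). In untreated cells 7 were tested, of which both osteocalcin copies were higher and *Pros1* (-2.18 ± 0.26) and *Prrg4* (-0.97 ± 0.27) lower at day 35 than at day 3 (5.63% and 51.5% of all genes; list median -0.07, all-gene median -0.69; limma, adjusted p = 6.44e-07 and 0.00516). The *Prrg4* fall was not called with centred libraries (-0.14, adjusted p = 0.673) or with run in the model (-0.76, adjusted p = 0.0761). With hormone 2 of 14 were higher and none lower at each day by edgeR. These were *Prrg4* and *Mgp* at day 35 (2.41% of all genes higher; list median 0.23, all-gene median 0.02). At day 3 they were *Mgp* and *Prrg3* (11.4% of all genes higher, a share close to that of the list; list median 0.64, all-gene median 0.26). Also 0 were lower at either day at an unadjusted p below 0.05 or by DESeq2, which called 3 higher at each day. *Prrg3* averaged only 1.53 ± 0.634 CPM in hormone-treated cells at day 3, against 0.0688 ± 0.119 CPM in vehicle cells, and was not called once the background per kilobase was subtracted (3.84, adjusted p = 0.135), with the replicate block (4.41, 0.0618), or without any 1 of 5 of the 6 libraries (adjusted p = 0.0659 to 0.0828). The coagulation factor genes *F2*, *F7*, *F9* and *F10* averaged at most 1.53 CPM in any group.

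The vitamin K cycle serves all of these proteins. In vehicle cells 3 of 6 tested genes were higher and 1 lower at day 35 than at day 3 (15.5% and 14.5% of all genes; list median 0.30, all-gene median 0.17). The carboxylase gene *Ggcx* averaged 93.9 ± 7.2 CPM at day 35 and 55.2 ± 5 CPM at day 3 (0.77 ± 0.14, edgeR, adjusted p = 0.000712). The vitamin K epoxide reductase gene *Vkorc1* averaged 48.4 ± 3.41 CPM at day 35 and 24.4 ± 3.26 CPM at day 3 (0.99 ± 0.18, adjusted p = 0.000528). *Calu*, whose calcium-binding product inhibits the carboxylase, rose by 0.65 ± 0.22 (adjusted p = 0.0328), a call lost without vehicle day 3 replicate 2 (0.41, adjusted p = 0.108) or without vehicle day 35 replicate 1 or 3. The quinone reductase gene *Nqo1* fell in vehicle cells (-1.66 ± 0.25, adjusted p = 0.000123) and in untreated cells at day 35 (-2.38 ± 0.27, limma, adjusted p = 5.05e-07). In untreated cells *Nqo1* was the only one of 6 tested genes called, beside 57.1% of all genes, 51.5% lower (list median -0.28, all-gene median -0.69). No gene of this list was called with hormone at either day by edgeR (list medians -0.14 at day 35 and -0.22 at day 3) or by DESeq2. By edgeR 4.56% of all genes were called at day 35 and 20.5% at day 3, with all-gene medians of 0.02 and 0.26. At an unadjusted p below 0.05 edgeR had 1 higher and 1 lower at day 35 and 0 at day 3.

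Of the 3 genes proposed as osteocalcin receptors, *Gprc6a*, *Gpr158* and *Gpr37*, none passed the filter in untreated cells, where no group average exceeded 0.00833 RPKM at day 35 or day 3. *Gpr158* was called with hormone at day 3 (3.12 ± 0.417 CPM in hormone-treated cells, against 0.0612 ± 0.106 CPM in vehicle cells; edgeR, adjusted p = 0.0162), and still after the background per kilobase was subtracted (adjusted p = 0.0245), in the libraries with the most reads on olfactory receptor genes.

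Among genes that promote or inhibit mineral deposition more rose than fell over time. In untreated cells 6 of 11 tested were higher and 2 lower at day 35 than at day 3 (5.63% and 51.5% of all genes; list median 1.31, all-gene median -0.69). They were led by *Ibsp* (5.49 ± 0.34), the gene of bone sialoprotein, *Smpd3* (2.39 ± 0.24), the alkaline phosphatase gene *Alpl* (2.50 ± 0.27) and *Sparc* (1.99 ± 0.25), the gene of osteonectin (limma, adjusted p = 3.74e-10, 9.29e-08, 2.85e-07 and 1.3e-06). In vehicle cells 10 of 16 were higher and 1 lower at day 35 than at day 3 (15.5% and 14.5% of all genes; list median 2.79, all-gene median 0.17). With hormone at day 35, 3 of 16 rose and 4 fell (2.41% and 2.14% of all genes). *Smpd3* fell to 30.1 ± 0.84 CPM in hormone-treated cells, against 202 ± 7.86 CPM in vehicle cells (-2.75 ± 0.17), and *Nt5e* changed by -1.15 ± 0.15 (edgeR, adjusted p = 2.58e-07 and 0.000251). *Enpp1*, whose enzyme makes the mineralization inhibitor pyrophosphate, rose to 47.3 ± 4.01 CPM in hormone-treated cells, against 7.49 ± 3.9 CPM in vehicle cells at day 35 (2.65 ± 0.29, edgeR, adjusted p = 4.88e-05), and to 44.1 ± 6.87 CPM, against 8.91 ± 2.06 CPM, at day 3 (2.31 ± 0.29, adjusted p = 8.83e-05). *Spp1*, whose product also inhibits mineral growth, rose at both days as well (3.56 ± 0.22 at day 35 and 1.48 ± 0.21 at day 3, edgeR, adjusted p = 2.58e-07 and 0.00024). At day 3, 3 of 16 rose and 7 fell (11.4% and 9.09% of all genes), including the phosphate transporter gene *Slc20a1* (-1.95 ± 0.18) and *Dmp1* (-1.51 ± 0.27; edgeR, adjusted p = 5.23e-06 and 0.00161).

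Transcription regulators of osteocalcin changed in both directions. In untreated cells at day 35, 3 of 22 tested were higher and 13 lower than at day 3 (5.63% and 51.5% of all genes, so the share lower is close to that of all genes; list median -0.84, all-gene median -0.69). *Sp7* (2.79 ± 0.25), an activator of the osteoblast programme, was higher and *Twist2* (-3.15 ± 0.24), an inhibitor of Runx2, and *Jun* (-2.70 ± 0.27) were lower (limma, adjusted p = 2.76e-08, 3.47e-09 and 9.88e-08). In vehicle cells 9 of 31 were higher and 10 lower at day 35 than at day 3 (15.5% and 14.5% of all genes), with *Sp7* (3.52 ± 0.23), *Jun* (-2.38 ± 0.14), *Fos* (-2.79 ± 0.23) and *Junb* (-1.94 ± 0.18) leading (edgeR, adjusted p = 2.81e-08, 1.01e-08, 2.78e-07 and 1.04e-06). With hormone at day 35, 4 of 31 rose and 3 fell (2.41% and 2.14% of all genes). *Cebpd* (1.70 ± 0.21), *Cebpb* (1.15 ± 0.19) and *Vdr* (1.64 ± 0.35) were higher and *Sp7* fell to 27.8 ± 4.45 CPM in hormone-treated cells, against 76.4 ± 12.8 CPM in vehicle cells (-1.46 ± 0.21; edgeR, adjusted p = 0.000126, 0.00145, 0.0124 and 0.000602). At day 3, 1 of 31 rose and 11 fell (11.4% and 9.09% of all genes). The falls were led by the AP-1 genes *Jun* (-2.14 ± 0.14), *Junb* (-2.47 ± 0.19), *Fosl2* (-2.33 ± 0.18) and *Fos* (-2.62 ± 0.23; edgeR, adjusted p = 2.04e-07, 7.31e-07, 1.06e-06 and 2.78e-06).

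Matrix Gla protein binds BMP2 and BMP4 and lies in matrix beside fibronectin and elastin. Of 10 tested genes of these BMPs, receptors and matrix partners, 2 were higher and 2 lower at day 35 than at day 3 in vehicle cells, close to the 15.5% and 14.5% of all genes. *Bmp2* (3.63 ± 0.57) and *Acvrl1* (1.38 ± 0.26) were higher, and the fibrillin gene *Fbn1* (-1.39 ± 0.15) and *Bmp6* (-2.29 ± 0.65) lower (edgeR, adjusted p = 0.000177, 0.000884, 5.81e-06 and 0.0139). The *Bmp6* call was lost without vehicle day 3 replicate 3 (-1.94, adjusted p = 0.069) or vehicle day 35 replicate 3 (-2.04, 0.0795). The hormone raised 1 of 10 at each day, beside 2.41% of all genes at day 35 and 11.4% at day 3, namely *Fbn1* and *Bmp4*. *Fbn1* rose at day 35 (1112 ± 105 CPM in hormone-treated cells, against 508 ± 99.3 CPM in vehicle cells; 1.13 ± 0.15, edgeR, adjusted p = 0.000297), and *Bmp4* rose at day 3 (59.4 ± 5.8 CPM, against 40.9 ± 3.35 CPM; 0.54 ± 0.14, adjusted p = 0.0179). The *Bmp4* call was lost without vehicle replicate 1 or 3 or hormone replicate 1 or 2 at day 3 (0.41 to 0.51).

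Across the 18 untreated libraries, centred on their medians, the genes whose log2 level ran closest to *Bglap* were *Bglap2* (Pearson r = 0.994), *Ibsp* (0.989), *Panx3* (0.985), *Pth1r* (0.984) and *Alpl* (0.984). Those closest to *Bglap2* were *Bglap*, *Ibsp* (0.994), *Pth1r* (0.987), *Col11a2* (0.985) and *Rab27b* (0.984). *Mgp* had other neighbours: *Slc1a3* (0.985), *Cacna1g* (0.969), *Egfl6* (0.950), *Hexim1* (0.948) and *Cul7* (0.944). *Slc1a3*, a glutamate transporter gene, averaged 26.1 RPKM at day 3, 78.6 at day 14 and 22.6 at day 35. The correlation between *Bglap* and *Mgp* was 0.003 over these libraries. In the hormone experiment it was 0.789, and that between *Bglap2* and *Mgp* was 0.779. Over the 12 libraries of the hormone experiment the closest to *Bglap* were *Bglap2* (0.999), *Ptgis* (0.994), *Col11a2* (0.994), *Lonp1* (0.993) and *Osbpl2* (0.992), to *Bglap2* they were *Bglap*, *Lonp1* (0.994), *Ptgis* (0.993), *Antxr2* (0.992) and *Col11a2* (0.992), and to *Mgp* *Igsf3* (0.977), *Ankrd12* (0.968), *Tada1* (0.965), *Dstyk* (0.963) and *Kcnmb4* (0.962). These values describe likeness over libraries that share runs, depth and days.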

How the data were processed

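RNA of 18 untreated and 12 hormone-experiment libraries was depleted of ribosomal RNA and sequenced, per the labels' protocols. Reads were aligned with TopHat (version not given) to mm9, per the submitters' processing notes. The deposited files of untreated cells hold RPKM made by the authors, a unit read from the values; those deposited for hormone and vehicle cells carry RPKM in their names, yet every value is whole, so they were treated as raw counts per gene. Rows sharing a symbol were reduced to the highest row for RPKM and to the sum for counts. Groups came from the labels.

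The RPKM fit used limma (3.58.1) with a trend on log2(RPKM + 0.5) in the 18 libraries, with 12 residual degrees of freedom. The 9933 genes tested reached 1 RPKM in 3 or more libraries; log2 changes of low genes are understated on this scale. Counts were tested with edgeR (4.0.16) quasi-likelihood over all 12 libraries (8 residual degrees of freedom), with filterByExpr (20055 genes) and TMM. Tests were two-sided, Benjamini-Hochberg adjusted over all genes and called at an adjusted p below 0.05; p-values measure the spread between cultures of 1 line. R was 4.3.3, Python 3.11.15, and DESeq2 (1.42.0) an alternative. The scripts were tested on simulated data.

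The members and lists were chosen with earlier results of these data known. The 3 members and any measured gene of the Gla protein and vitamin K lists could be named; of other lists, at most 4 members with the smallest adjusted p in a comparison, or all where 5 or fewer are counted; and the 5 genes most correlated with a member. Some genes that this rule names are not reported here. Replicate numbers may pair the untreated libraries of days 3 to 28, where all 30 same-numbered pairs of deviations correlated above 0.1 (0.113 to 0.584). With day 35, 11 of 15 did, and 2 of 18 in the hormone experiment. Over all 45 untreated pairs the own number was the best match in 29. Replicate 1 of every day shared 1 sequencing run, so for it pairing and run cannot be told apart. The main fits held no replicate term. Alternatives were other pseudocounts, filters, scalings, sequencing run or replicate as a term, background subtraction per kilobase of exon, and leaving out each library. Promoters were matched by symbol in the RefSeq table, which gave 1 of the 3 genes.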

Additional observations from a re-analysis of the deposited data

Results flagged for a closer look

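*Prrg4*, a transmembrane Gla protein gene, responded to 1,25(OH)2D3 differently at the 2 days, by the test of that difference. At day 35 it averaged 66.5 ± 12.5 CPM in hormone-treated cells, against 21 ± 2.19 CPM in vehicle cells (SD, n = 3 each; log2 change 1.67 ± 0.20, edgeR, adjusted p = 9.24e-05). At day 3 it averaged 100 ± 18.3 CPM in hormone-treated cells, against 89.8 ± 18.2 CPM in vehicle cells (0.15 ± 0.19, adjusted p = 0.561). The difference, day 35 minus day 3, was 1.51 ± 0.27 (edgeR, adjusted p = 0.00312) and was called under every alternative run for it, from 1.38 to 1.76.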

How the results depend on the processing

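Of 583 values for the 3 genes under the alternatives run, 546 were stable. For tests this meant the same direction and side of the threshold, and for the share of *Bglap2* a move smaller than its SD. The sum of both copies was counted under each copy. The rises of *Bglap* and *Bglap2* from day 21 on, and of *Mgp* from day 7 to day 28, against day 3 kept direction and call under each alternative. Most of the exceptions lay near 0. *Bglap* at day 7 against day 3 became -0.04 with centred libraries, -0.16 rescaled without ribosomal RNA, -0.05 with run in the model and -0.03 summed with *Bglap2*. *Bglap* at day 14 against day 3 was not called with no filter (-1.04, adjusted p = 0.0794) or summed with *Bglap2* (-0.74, 0.0944). *Mgp* at day 35 against day 3 became 0.76 centred, 0.37 rescaled and 0.42 with run, and at day 21 against day 14 it became 0.17 centred and 0.09 rescaled. *Bglap* at day 14 against day 7 was called with run in the model (-1.24, adjusted p = 0.0116) and with the replicate block (-1.12, adjusted p = 0.0371), and *Mgp* at day 35 against day 28 was not called with run (-1.10, adjusted p = 0.287). *Bglap2* with hormone at day 3 became -0.06 with no filter on low counts. The block changed no other call of the 3 genes, and the cause of these changes was not tested.

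Leaving out 1 library at a time gave -0.07 to 0.26 for *Bglap* and -0.21 to 0.13 for *Bglap2* at day 7 against day 3, -1.19 to -0.86 for *Bglap* at day 14 against day 3, -0.24 to 0.09 for *Mgp* at day 35 against day 3, and -0.39 to 0.21 for *Mgp* at day 21 against day 14. At day 35 against day 28 it gave -0.05 to 0.49 for *Bglap*, -0.17 to 0.32 for *Bglap2* and -1.70 to -1.29 for *Mgp*. With hormone it gave -0.18 to 0.21 for *Bglap2* at day 3, and for *Mgp* 0.54 to 0.94 at day 3 and 0.83 to 1.14 at day 35. For *Prrg4* with hormone at day 3 it gave -0.01 to 0.29. Of 631 values for the other named genes, 610 kept direction and call.

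Counts of called genes moved more. With centred libraries the split of higher and lower calls against day 3 was 2661 and 2150 at day 21 and 2847 and 2180 at day 28, against 1280 and 2391 and 1029 and 3096 as listed; rescaled, it was 1395 and 1728 at day 7, against 1574 and 977, and 1417 and 4052 at day 35. With run in the model 3463 genes were called at day 35, against 5676. With all libraries kept, the steps called 285 genes (196 to 535) at day 14, 63 (41 to 228) at day 21, 123 (101 to 390) at day 28 and 793 (23 to 1502) at day 35. With hormone DESeq2 called 6705 genes at day 3, 1563 at day 35 and 2769 for the difference, against 4102, 914 and 1420, and background subtraction left 2638 at day 3. The unknown depth of the RPKM and 3 libraries a group limit what could be detected.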
